A study of Mus musculus with 6 samples.

Results

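Genes of cholesterol synthesis and sterol regulation were examined in keratinocytes, the epithelial cells of the epidermis, that had lost Gpx4, a selenoenzyme that detoxifies lipid peroxides of cell membranes. The 29 genes were listed by role: enzymes of the mevalonate stage, enzymes from squalene to cholesterol, regulators of the SREBP transcription factors, and LXR receptors with their efflux genes. A gene entered where a probe set of the array carried its symbol alone, and the probe set with the highest mean over 6 arrays stood for it. This matched 27 of the 29 genes, out of 18193 genes that the array named in this way, while Acat2 and Nr1h2 were not matched and are not analysed here. The 3 Gpx4 knockout arrays came from cells in which cre recombinase under the keratin 14 promoter, active in basal keratinocytes, had removed Gpx4. The 3 control arrays came from control cells of the same litters, whose alleles the labels do not give. Each array held total RNA of 1 pool of primary keratinocytes from newborn mice on a C57BL6/FVB background, 1 pool per genotype and litter for litters A, B and C. Cells of both genotypes grew in medium with 100 nM sodium selenite. Levels below are quantile-normalized probe set intensities, listed in the order of litters A, B and C. A log2 change is the knockout level minus the control level ± SE, estimated by limma on log2(intensity + 16) with litters as blocks, where the added 16 shrinks the differences of dim genes. A gene is said to have risen or fallen only where its p, adjusted over all 45037 probe sets, was under 0.05. Precision is limited by there being 3 arrays per group.

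Cholesterol is built from acetyl-CoA through mevalonate, the isoprenoids isopentenyl and farnesyl diphosphate, squalene and lanosterol. The SREBP transcription factors switch on the genes of this route when sterols are scarce: the escort protein SCAP carries them from the endoplasmic reticulum, and INSIG proteins hold SCAP back when sterols are plentiful. LXR receptors bind oxysterols and switch on the export of cholesterol. In the epidermis cholesterol is, with ceramides and fatty acids, one of the lipids of the permeability barrier, and keratinocytes make much of it themselves.

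The labels and other cell types were checked on the same arrays before the sterol genes were read. Gpx4 had intensities of 212, 259.7 and 216 in knockout arrays, against 497, 551 and 536 in control arrays (log2 change -1.15 ± 0.091, limma adjusted p = 0.0206). Of 10 keratinocyte markers 5 had a log2 change below 0 and none rose. Krt10 of the suprabasal layers fell (log2 change -1.42 ± 0.084, adjusted p = 0.00922). Krt5 and Krt14 were bright in every array and did not pass. Trp63 and Krt1 had log2 changes of -0.43 ± 0.076 and -1.21 ± 0.22 and did not pass. Ivl had one of 0.23 ± 0.41, with 1.21 for A, 0.64 for B and -1.16 for litter C. The 10 intensities summed to 26846 to 28212 in knockout and 27008 to 29234 in control arrays. Of 8 melanocyte markers Tyrp1 and Mlana rose, and the intensities of all 8 summed to 6397 to 7000.2 in knockout and to 4597 to 4767 in control arrays. No fibroblast marker of 7 passed, and their sum was 402 to 595 in knockout arrays, against 191 to 543 in control arrays, the highest of these in litter C. Of 10 sebaceous gland markers Krt79 and Mgst1 fell, and the sum was 1270 to 1563 in knockout and 1533 to 2164 in control arrays. The sebaceous regulators Pparg and Mc5r were at most 2.53 and 14.8 in any array, whereas Plin2 lay between 594 and 1047. Cidea was at 253 in the control of litter C, against 27.7 and 34.2 in the controls of litters A and B. No marker of blood or endothelial cells passed, and their 7 intensities summed to 113 to 150.2 in knockout and 97.1 to 122 in control arrays. The Y-linked Eif2s3y was at most 4.62 in knockout arrays, against at least 155 in control arrays, and Xist rose (log2 change 1.36 ± 0.10, adjusted p = 0.0194), so the sex of the mice and the genotype cannot be told apart for any gene here. The part of these cell types and layers in the sterol results was not tested. In pooled RNA, fewer cells of a type and less RNA per cell cannot be told apart.

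The knockout pools held less signal for most of these genes. Fdps, Fdft1 and Insig2 fell and no gene of the 27 rose in limma. At an unadjusted p under 0.05, 13 were lower (48.1%) and 3 higher (11.1%), against 7.58% and 7.06% of all probe sets, and 15.4% and 14.9% of the genes with a mean intensity of at least 100. The share that was higher was thus near that of other genes. The 3 that fell were 11.1% of the genes measured, against 0.262% of all probe sets that fell and 0.158% that rose, and against 0.935% of the 6206 genes with a mean intensity of at least 100 that fell. The summed intensity of the 27 genes was 8172, 8066 and 7959.8 in the knockout arrays, against 11165, 11087 and 9708 in the control arrays. All 3 knockout sums lay below all 3 control sums, and the control of litter C was the lowest of the controls. The log2 change was below 0 in 20 of the 27 genes, or 74.1%. That compares with 49.5% of all probe sets and 50.8% of the genes with a mean intensity of at least 100. In 16 genes it was below 0 in every litter and in 4 above 0 in every litter, and these shares were not counted over all probe sets. The median log2 change of the 27 was -0.27, with -0.36 for A, -0.35 for B and -0.13 for litter C, against 0.0018 over all probe sets. In 12 genes every knockout array lay below every control array, 44.4% of the genes measured, against 9.43% of all probe sets and 15.5% of the genes with a mean intensity of at least 100. In 2 genes, Abca1 and Insig1, every knockout array lay above every control array. That was 7.41%, against 8.79% of all probe sets and 14.4% of the genes with a mean intensity of at least 100. With intensities scaled as deposited none of the 3 passed (limma adjusted p between 0.172 and 0.268), although their log2 changes were larger, at -1.04 for Fdps, -0.89 for Fdft1 and -0.90 for Insig2. They also did not pass without an intensity trend (adjusted p between 0.118 and 0.122) or with a pseudocount of 64 (between 0.0557 and 0.0636). As deposited the median of the 27 was -0.46, and of all probe sets 32 fell and 3 rose, against 118 and 71 after quantile normalization.

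**Figure D1:**
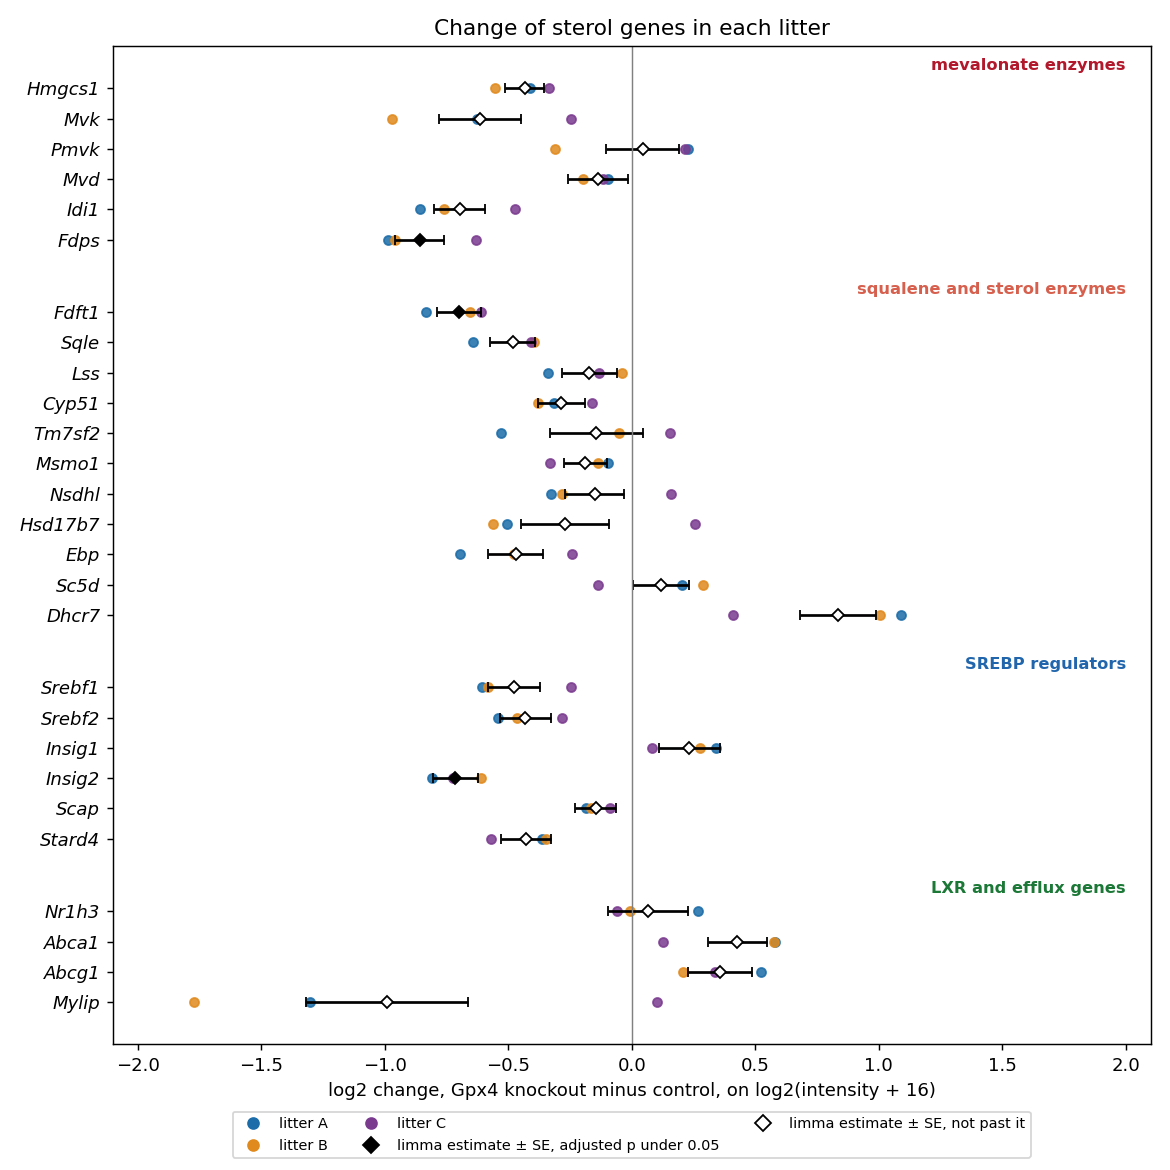
Log2 change, Gpx4 knockout minus control on log2(intensity + 16), of the 27 measured genes, grouped by role. Circles are single litters and diamonds the limma estimate ± SE, filled where the adjusted p was under 0.05 (Fdps, Fdft1 and Insig2), and the circles of litter C are closest to 0 in 18 of the 27 genes.

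In 18 of the 27 genes the log2 change of litter C was closer to 0 than those of litters A and B. The control array of litter C also stood apart: its trimmed mean intensity as deposited was 114, against 72.8 and 89.6 in the controls of litters A and B, and its fibroblast markers summed to 543, against 191 and 203. Keratinocyte markers of that array differed too, with Krt1 at 351 against 917 and 1299, and Ivl at 449 against 129 and 202. Its Krt10, at 760 against 590 and 737, was near that of litter B. The part of these differences in the litter C values was not tested. Without litter C 12 of the 27 genes fell and 2 rose, in a fit in which 3.15% of all probe sets fell and 3.01% rose. Those that fell without litter C were Fdps, Idi1, Hmgcs1, Mvk, Fdft1, Sqle, Ebp, Hsd17b7, Srebf1, Srebf2, Insig2 and Mylip, and those that rose were Dhcr7 and Abca1. Without litter A or without litter B none of the 27 passed, and over all probe sets limma then passed 2 lower and 1 higher without litter A and 0 either way without litter B.

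Promoters of 5 of the genes described below are shown first. As background, SREBP acts with the CCAAT-binding factor NF-Y at many sterol promoters. RefSeq promoter windows of GRCm38.p6, from 250 bases before to 50 after a gene's start, were matched by symbol for 22 of the 27 genes. Fdps, Fdft1, Sqle, Stard4 and Abcg1 were not matched. The windows were searched on both strands for CCAAT and for TCACNCCA, which covers the core of the classical sterol regulatory element with 1 free position. These motifs do not overlap each other in the sequences printed. At least 1 window held CCAAT in 19 of the 22 genes, or 86.4%, against 42% of the 14453 genes of the array with a window and 37.4% of all 32851 windows. TCACNCCA was found in 3 of the 22 genes, Hmgcs1, Msmo1 and Srebf2, or 13.6%, against 4.7% of the genes of the array and 4.36% of all windows. Genes with several windows had more chances to match, and a match is a string of letters, not a binding site. The 250 bases before the start are printed 5′ to 3′ on the strand of the gene, with every match to either motif, on either strand, in capitals. Hmgcs1 lies at chr13:119690101-119690350 on the plus strand, Idi1 at chr13:8885356-8885605 on the plus strand, Insig2 at chr1:121332590-121332839 on the minus strand and Srebf2 at chr15:82147019-82147268 on the plus strand. Dhcr7, whose log2 change was above 0 and did not pass, lies at chr7:143829964-143830213 on the plus strand.
Hmgcs1: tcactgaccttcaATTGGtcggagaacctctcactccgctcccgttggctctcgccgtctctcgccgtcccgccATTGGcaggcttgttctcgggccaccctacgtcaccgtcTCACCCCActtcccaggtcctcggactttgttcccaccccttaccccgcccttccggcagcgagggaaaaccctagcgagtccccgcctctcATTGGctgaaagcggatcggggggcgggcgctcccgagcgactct
Idi1: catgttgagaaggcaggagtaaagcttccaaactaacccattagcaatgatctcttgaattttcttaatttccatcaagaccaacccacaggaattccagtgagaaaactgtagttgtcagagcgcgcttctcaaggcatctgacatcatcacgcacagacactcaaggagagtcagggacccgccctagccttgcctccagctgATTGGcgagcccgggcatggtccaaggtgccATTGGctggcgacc
Insig2: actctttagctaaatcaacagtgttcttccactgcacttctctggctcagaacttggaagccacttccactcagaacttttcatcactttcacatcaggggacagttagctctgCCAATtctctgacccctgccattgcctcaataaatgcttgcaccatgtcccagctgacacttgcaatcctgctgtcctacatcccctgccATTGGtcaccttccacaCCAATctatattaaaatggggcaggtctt
Srebf2: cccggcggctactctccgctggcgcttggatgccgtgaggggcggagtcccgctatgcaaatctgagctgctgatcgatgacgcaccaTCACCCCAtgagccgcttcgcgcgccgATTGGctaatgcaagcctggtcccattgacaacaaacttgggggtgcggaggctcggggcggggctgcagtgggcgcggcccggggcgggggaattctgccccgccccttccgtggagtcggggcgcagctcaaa
Dhcr7: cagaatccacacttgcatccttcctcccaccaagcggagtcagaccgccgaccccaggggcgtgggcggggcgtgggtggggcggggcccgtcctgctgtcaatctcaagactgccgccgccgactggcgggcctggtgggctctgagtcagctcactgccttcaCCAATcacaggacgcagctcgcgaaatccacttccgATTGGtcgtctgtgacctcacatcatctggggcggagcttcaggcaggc
Hmgcs1 held TCACNCCA 137 bases before its start and CCAAT 237, 176 and 45 bases before it, with 1 more after it. Srebf2 held TCACNCCA 162 bases and CCAAT 135 bases before its start. Idi1 held CCAAT 45 and 14 bases before its start and Insig2 136, 46 and 29 bases before it. Insig2 and Dhcr7 have 3 windows each, and the other 2 of each held neither motif. The Dhcr7 window shown held CCAAT 85 and 49 bases before its start.

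Of the 6 mevalonate enzymes measured, 1 fell and none rose, 5 had a log2 change below 0, and their median was -0.52. Over all probe sets 0.262% fell, 0.158% rose and 49.5% were below 0. Of the genes with a mean intensity of at least 100, 0.935% fell, 0.532% rose and 50.8% were below 0. Fdps, farnesyl diphosphate synthase, which makes the isoprenoid from which squalene, dolichol and prenyl groups are built, had intensities of 595, 639 and 626 in the knockout arrays, against 1194, 1257 and 978 in the control arrays. The knockout values lay within a narrow band far below every control. Fdps fell 1.81-fold (log2 change -0.86 ± 0.098, limma adjusted p = 0.038), with -0.99 for A, -0.96 for B and -0.63 for litter C. Its other probe set, with a mean of 1.73, had a log2 change of -0.10.

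Idi1, the isomerase that supplies dimethylallyl diphosphate to Fdps, had intensities of 335, 331 and 344 in knockout arrays, against 619.9, 572 and 483 in control arrays. The groups did not overlap, and the log2 change of -0.70 ± 0.10 missed the threshold (adjusted p = 0.0623). Its dimmer probe set had a log2 change of -0.24 ± 0.15. Idi1 passed with a pseudocount of 1 (-0.72, adjusted p = 0.0321), with array medians set equal (-0.83, adjusted p = 0.0429) and without the dimmest 40% of probe sets (adjusted p = 0.0214).

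Hmgcs1, the cytosolic HMG-CoA synthase at the head of the mevalonate route, was the brightest of the 27 genes. Its brightest probe set had intensities of 1693, 1469.8 and 1418 in knockout arrays, against 2256, 2167 and 1791 in control arrays. All knockout values lay below all control values, although knockout litter A and control litter C were close. The log2 change was -0.43 ± 0.078 (adjusted p = 0.0835), and it passed without the dimmest 40% of probe sets (adjusted p = 0.0254). Another of its 5 probe sets passed, at 1092 ± 31.3 in knockout and 1715 ± 175 in control arrays (SD, n = 3 each; log2 change -0.64 ± 0.081, limma adjusted p = 0.0448). The other bright probe sets had log2 changes of -0.40 ± 0.11 and -0.60 ± 0.092 and did not pass, and the dim one, with a mean of 25.5, had -0.09 ± 0.15. The probe sets of Hmgcs1 thus differed in size and not in sign. Its promoter carried both motifs searched.

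Mvk, mevalonate kinase, had intensities of 72.8, 62.4 and 55 in knockout arrays, against 121, 138 and 68.1 in control arrays. The control of litter C overlapped the knockout values, and the log2 change was -0.61 ± 0.17 (adjusted p = 0.174). A second probe set of Mvk, with a mean of 66.3, had a smaller log2 change of -0.21 ± 0.12. The next enzymes of the stage differed little: Mvd, the mevalonate diphosphate decarboxylase, had a log2 change of -0.14 ± 0.12 and Pmvk, the phosphomevalonate kinase, one of 0.04 ± 0.15. Pmvk had a log2 change of -0.16 as deposited, -0.10 with array medians set equal, and -0.05 and -0.04 without litters A and C.

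**Figure D2:**
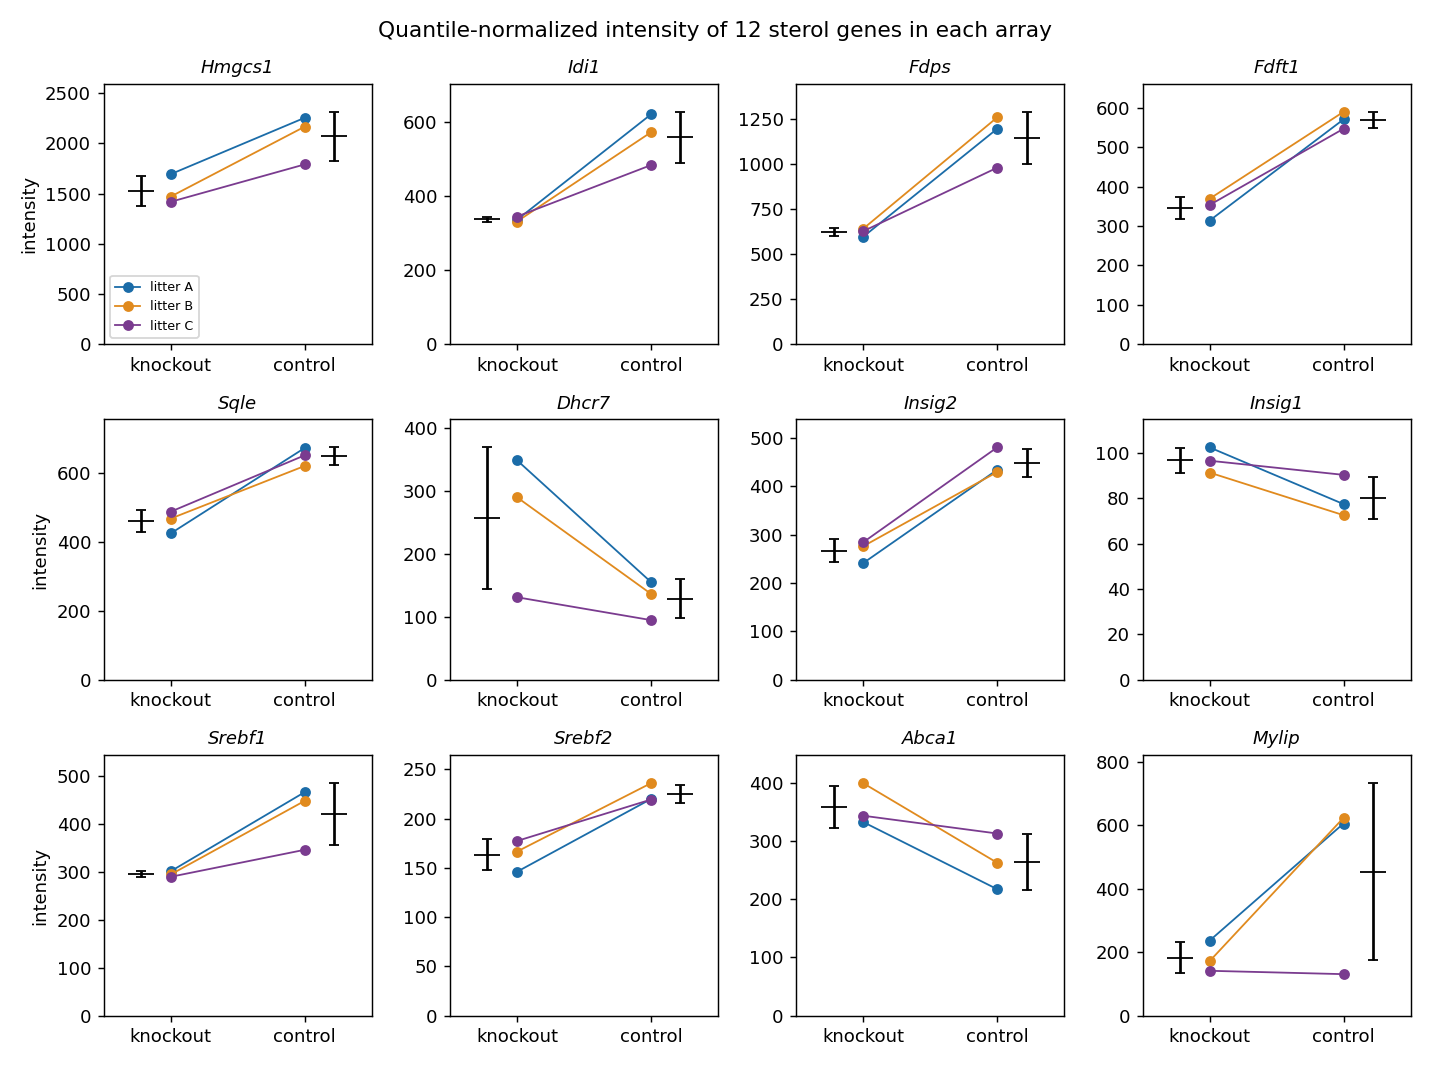
Quantile-normalized intensity of 12 genes in each array, knockout left and control right, with a line joining the arrays of a litter and bars giving mean ± SD over 3 arrays beside the points. Axes start at 0; knockout and control values do not overlap for Hmgcs1, Idi1, Fdps, Fdft1, Sqle, Insig2, Insig1, Srebf1, Srebf2 and Abca1, and the Mylip control of litter C lies at 131, far below the other controls.

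Of the 11 enzymes from squalene to cholesterol, 1 fell and none rose, 9 had a log2 change below 0, and their median was -0.19. The shares over all probe sets were 0.262% that fell, 0.158% that rose and 49.5% below 0. Among genes with a mean intensity of at least 100 they were 0.935%, 0.532% and 50.8%. Fdft1, squalene synthase, which commits farnesyl diphosphate to sterols, had intensities of 314, 369 and 353 in knockout arrays, against 571, 590.4 and 547 in control arrays. It fell 1.62-fold (log2 change -0.70 ± 0.090, limma adjusted p = 0.0452), with -0.83 for A, -0.65 for B and -0.61 for litter C. The probe set is of a kind whose probes may match other transcripts, as are those that stand for Hmgcs1 and Hsd17b7. A second probe set of Fdft1 of like brightness gave 313 ± 19.3 in knockout and 526 ± 41.4 in control arrays (SD, n = 3 each), a log2 change of -0.72 ± 0.10 (limma adjusted p = 0.0543). The other 2, with means of 14.4 and 7.26, had log2 changes of 0.34 ± 0.15 and 0.17 ± 0.14, so the mean over the probe sets of Fdft1 was -0.23 and did not pass (adjusted p = 0.276).

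Sqle, squalene epoxidase, the oxygen-requiring step after squalene, had intensities of 425, 468 and 488 in knockout arrays, against 673, 621 and 652 in control arrays. The groups were well apart, with a log2 change of -0.48 ± 0.091 (adjusted p = 0.0909). Sqle passed without the dimmest 40% of probe sets (adjusted p = 0.0413). Lss, lanosterol synthase, had a log2 change of -0.17 ± 0.11, Cyp51, the lanosterol demethylase, one of -0.28 ± 0.095 and Msmo1, a C4 methyl sterol oxidase, one of -0.19 ± 0.087. In Lss and Cyp51 every knockout array lay below every control array. Tm7sf2, a sterol C14 reductase, was dim, at 29.4 ± 3.56 in knockout and 34.4 ± 8.6 in control arrays (SD, n = 3 each), with a log2 change of -0.14 ± 0.19 that was 0.05 without litter A. Hsd17b7, a 3-keto sterol reductase, had a log2 change of -0.27 ± 0.18 on its brightest probe set, with -0.50 for A, -0.56 for B and 0.26 for litter C. Its other probe sets, with means of 77.7, 76.7 and 13.1, had log2 changes of -0.0092 ± 0.17, 0.14 ± 0.12 and 0.07 ± 0.18. With the probe sets of Hsd17b7 averaged the log2 change was -0.0172.

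Ebp and Nsdhl are X-linked in mice and were read beside the sex-linked genes. Ebp, the sterol isomerase, had intensities of 274, 322 and 331 in knockout arrays, against 453, 454 and 393 in control arrays. All knockout arrays lay below all control arrays (log2 change -0.47 ± 0.11, adjusted p = 0.142). Nsdhl, a C4 decarboxylating dehydrogenase, overlapped between groups, with a log2 change of -0.15 ± 0.12 and 0.16 in litter C. The Y-linked Eif2s3y was at 3.18, 0.667 and 4.62 in knockout arrays, against 155, 178 and 185 in control arrays. Xist, expressed from the inactive X chromosome, was at 1229, 1214 and 1259.8 in knockout arrays, against 502, 389 and 536 in control arrays. Both X-linked genes were thus measured in pools that also differed in these sex-linked transcripts.

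Dhcr7, which makes cholesterol from 7-dehydrocholesterol in the last step of one branch, differed the other way. It had intensities of 348, 289.7 and 131 in knockout arrays, against 155, 136 and 94.8 in control arrays. Each knockout value exceeded the control of its own litter, and the knockout of litter C lay below the controls of litters A and B. The log2 change was 0.83 ± 0.15 (adjusted p = 0.0881), with 1.09 for A, 1.00 for B and 0.41 for litter C. Dhcr7 passed with a pseudocount of 1 (0.90, adjusted p = 0.047) and without the dimmest 40% of probe sets (adjusted p = 0.0306). Sc5d, the desaturase that makes 7-dehydrocholesterol, had a log2 change of 0.12 ± 0.11 on its brightest probe set, which was -0.08 as deposited and -0.02 with array medians set equal. A dim probe set of Sc5d, with a mean of 41.6, had a log2 change of -0.54 ± 0.18.

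**Figure D3:**
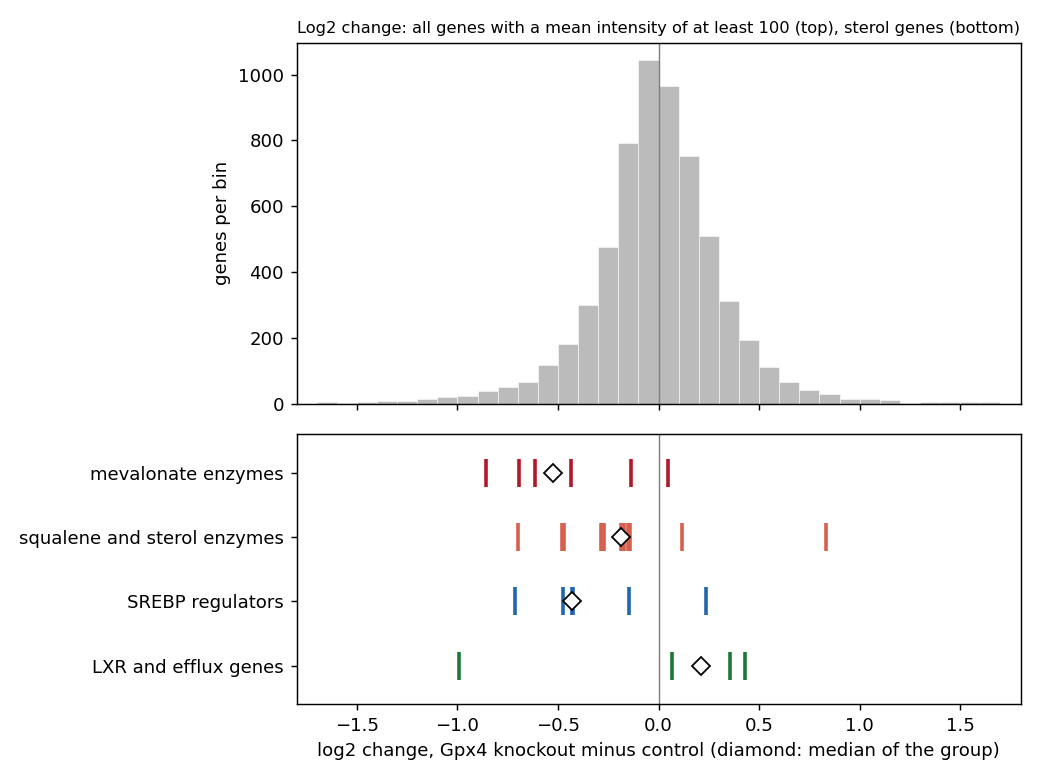
Log2 change, knockout minus control, of the 6206 genes with a mean intensity of at least 100 (top, genes per bin of 0.1; 15 genes lie outside the plotted range) and of the 27 measured genes by role (bottom, 1 line per gene, diamonds are medians). The medians are -0.52 for mevalonate enzymes, -0.19 for squalene and sterol enzymes, -0.43 for SREBP regulators and 0.21 for LXR and efflux genes, beside -0.0046 for the genes on top.

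Of the 6 SREBP regulators 1 fell and none rose, 5 had a log2 change below 0, and their median was -0.43. The shares over all probe sets were 0.262% that fell, 0.158% that rose and 49.5% below 0. Among genes with a mean intensity of at least 100 they were 0.935%, 0.532% and 50.8%. Insig2, an endoplasmic reticulum anchor of SCAP, had intensities of 241, 276 and 284 in knockout arrays, against 434, 429.7 and 481 in control arrays. It fell 1.64-fold (log2 change -0.71 ± 0.091, limma adjusted p = 0.0448), with -0.81 for A, -0.61 for B and -0.72 for litter C. Unlike most of the 27 genes, Insig2 was not closest to 0 in litter C. Its other probe sets had log2 changes of -0.50 ± 0.10 and -0.49 ± 0.091 and did not pass (limma adjusted p = 0.104 and 0.0896). The call was lost with array medians set equal, where the log2 change was larger (-0.84, adjusted p = 0.0503). Insig1, the paralog that is itself a well known SREBP target, had intensities of 102, 91.4 and 96.6 in knockout arrays, against 77.5, 72.6 and 90.3 in control arrays. Its knockout values lay just above its control values, with a log2 change of 0.23 ± 0.12 (adjusted p = 0.443) that was 0.039 as deposited and 0.0983 with array medians set equal. The difference between Insig1 and Insig2 was not tested.

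Srebf1, which encodes SREBP-1, had intensities of 302, 295 and 290.1 in knockout arrays, against 467, 449 and 347 in control arrays. The knockout values were nearly equal and below every control (log2 change -0.48 ± 0.11, adjusted p = 0.126). Srebf2, which encodes SREBP-2, the main activator of cholesterol synthesis genes, had intensities of 146, 167 and 177 in knockout arrays, against 219.9, 236 and 219 in control arrays. These groups did not overlap either (log2 change -0.43 ± 0.10, adjusted p = 0.147), and a second probe set gave -0.28 ± 0.10. Stard4, a cytosolic sterol carrier whose gene is an SREBP-2 target, had intensities of 182, 186 and 163 in knockout arrays, against 239, 241 and 249.6 in control arrays. Its groups were apart (log2 change -0.43 ± 0.10, adjusted p = 0.144), and its other probe sets gave -0.30 ± 0.12 and -0.44 ± 0.12. Scap, the sterol-sensing escort itself, overlapped between groups (log2 change -0.15 ± 0.082).

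None of the 4 LXR and efflux genes measured passed in limma. At an unadjusted p under 0.05, 1 was lower and 2 were higher. The shares were 7.58% and 7.06% of all probe sets, and 15.4% and 14.9% of the genes with a mean intensity of at least 100. The median log2 change of the 4 was 0.21, with 0.40 for A, 0.10 for B and 0.11 for litter C. That median was 0.0727 as deposited, 0.132 with array medians set equal, 0.133 with a pseudocount of 64 and 0.119 without litter A. Abca1, the transporter that loads cholesterol onto apolipoprotein A-I, had intensities of 332, 399 and 343 in knockout arrays, against 217, 263 and 313 in control arrays. Every knockout array exceeded every control array, by the least in litter C (log2 change 0.43 ± 0.12, adjusted p = 0.187), and its log2 change was 0.225 as deposited and 0.285 with array medians set equal. Its 2 dimmer probe sets had log2 changes of 0.26 ± 0.14 and 0.18 ± 0.16. Abcg1, which exports cholesterol to lipoprotein particles, had intensities of 86.2, 73.2 and 125 in knockout arrays, against 55, 61.3 and 95.4 in control arrays. It was higher in the knockout of each litter, although the groups overlapped (log2 change 0.36 ± 0.13, adjusted p = 0.281), and its log2 change was 0.151 as deposited and 0.21 with array medians set equal.

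Mylip, which encodes the ubiquitin ligase IDOL that LXR induces and that marks lipoprotein receptors for degradation, had intensities of 236, 171 and 141 in knockout arrays, against 605, 623 and 131 in control arrays. The control of litter C lay below all 3 knockout arrays, while the other controls lay far above them. The log2 change was -0.99 ± 0.33 (adjusted p = 0.245), with -1.30 for A, -1.77 for B and 0.10 for litter C. Mylip passed with array medians set equal (-1.11, adjusted p = 0.024). Without litter C it was -1.54 and passed (adjusted p = 0.00164), and without litter B it was -0.60 (adjusted p = 0.688). Nr1h3, the LXR alpha receptor, was near the dim end, at 18 ± 5.53 in knockout and 16.3 ± 3.39 in control arrays (SD, n = 3 each), with a log2 change of 0.07 ± 0.16 that was -0.01 as deposited and -0.03 without litter A. LXR target genes therefore lay on both sides of 0.

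**Figure D4:**
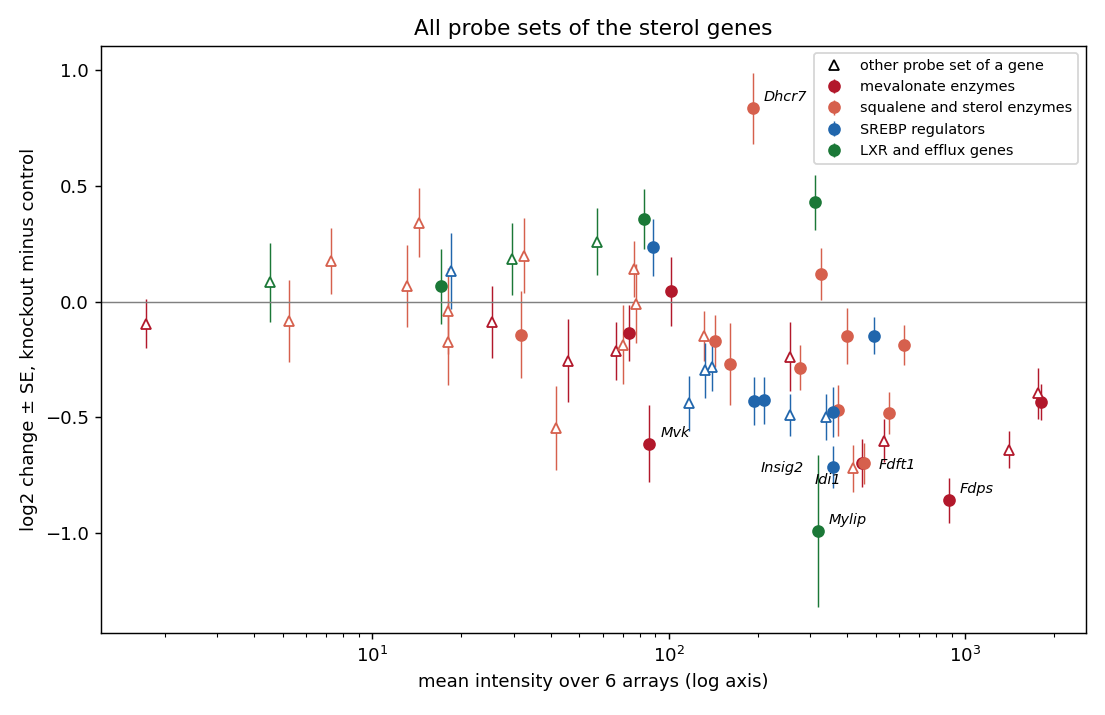
Log2 change ± SE, knockout minus control, of all 57 probe sets of the 27 genes against the mean intensity over 6 arrays (log axis), filled circles for the probe set that stands for a gene and open triangles for the others. Of the 32 probe sets with a mean of at least 100, 28 lie below 0, and the dim ones scatter around 0.

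All 57 probe sets of the 27 genes were read beside the brightest ones. There were 17 genes with several probe sets and 10 with 1. Of all 57, 4 fell and none rose: those named above of Fdps, Fdft1, Insig2 and Hmgcs1. Of the 32 with a mean intensity of at least 100, 28 had a log2 change below 0. Several of the 32 measure the same gene, as for Hmgcs1, Insig2 and Stard4, so they are not separate genes. Of the 6206 genes with that mean, each counted once, 50.8% were below 0. The probe sets above 0 at that brightness were those of Pmvk, Dhcr7, Sc5d and Abca1. With probe sets averaged per gene in place of the brightest, none of the 27 genes passed and their median was -0.20.

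Other sterol genes and fatty acid genes known as SREBP targets were set beside the 27. Of 22 sterol genes measured outside the 27, none passed in limma, 12 were below 0, and the median was -0.07. At an unadjusted p under 0.05, 5 were lower and 6 higher, or 22.7% and 27.3%. The shares were 7.58% and 7.06% of all probe sets, and 15.4% and 14.9% of the genes with a mean intensity of at least 100. Ch25h, cholesterol 25-hydroxylase, which makes the oxysterol 25-hydroxycholesterol, had intensities of 157, 223 and 323 in knockout arrays, against 77.5, 58.2 and 70.3 in control arrays. Every knockout array exceeded every control (log2 change 1.52 ± 0.21, adjusted p = 0.0516). Cyp27a1, the sterol 27-hydroxylase, had 6.62, 14.7 and 7.02 in knockout arrays, against 29.3, 35.7 and 27.6 in control arrays, all dim (log2 change -0.89 ± 0.16, adjusted p = 0.0821). Smpdl3a, a phosphodiesterase that LXR induces in human macrophages, had a log2 change of -0.69 ± 0.12 (adjusted p = 0.0831). Mbtps2, the X-linked site-2 protease that releases SREBP, had one of 0.53 ± 0.13 (adjusted p = 0.157), unlike the SREBP genes themselves. The differences between these genes and the 27 were not tested.

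Of 17 genes listed as SREBP targets, nearly all of fatty acid metabolism, none passed in limma, 12 were below 0, and the median was -0.24. At an unadjusted p under 0.05, 7 were lower and 0 higher, or 41.2% and 0%. The shares were 7.58% and 7.06% of all probe sets, and 15.4% and 14.9% of the genes with a mean intensity of at least 100. Scd1, the stearoyl-CoA desaturase that makes oleate, had intensities of 153, 237 and 274 in knockout arrays, against 508, 549 and 465 in control arrays. The groups were far apart (log2 change -1.17 ± 0.17, adjusted p = 0.0577). Fads2, the delta-6 desaturase of polyunsaturated fatty acids, had 20.1, 29.1 and 28.9 in knockout arrays, against 71.8, 71.5 and 50.6 in control arrays (log2 change -0.94 ± 0.18, adjusted p = 0.0969). Me1, malic enzyme, a source of NADPH, had a log2 change of -0.36 ± 0.086 and Scd2 one of -0.43 ± 0.11, both without overlap of the groups (adjusted p = 0.146 and 0.149). Fasn, fatty acid synthase, had intensities of 354, 433 and 445 in knockout arrays, against 361, 359 and 437 in control arrays. Its groups overlapped, with a log2 change of 0.09 ± 0.096.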

How the data were processed

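Messenger RNA of 3 Gpx4 knockout and 3 control pools was measured on 1-colour GeneChip arrays with biotin-labelled targets, per the labels' protocols. The deposited table holds linear intensity values per probe set. Background correction, probe summary and scaling by the authors are not given in the sources used here. The 2% trimmed mean intensity of an array lay between 72.8 and 114, highest in the control of litter C.

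The 64 control probe sets were left out, and the other 45037 were quantile-normalized. Tests on log2(intensity + 16) used limma, version 3.58.1, in R, version 4.3.3 (lmFit, eBayes with an intensity trend, litter as a block, two-sided, Benjamini-Hochberg over all probe sets, threshold 0.05). The design text pairs pools by litter, and the deviations of same-litter arrays from their group means had r = 0.175 for litter A, 0.0474 for litter B and 0.207 for litter C. Symbols came from the platform annotation, with 34945 probe sets of 1 gene, 932 of several and 9160 not listed. The steps were tested on simulated data.

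The genes and lists were chosen with earlier results of these data known, so no p over a list is given. Intensities in each array are printed for genes past the threshold and for up to 4 per role or list with the smallest p; every other measured gene of the 27 and the markers are given more briefly. Insig1 and Fasn are printed in full outside that rule and were chosen after their values were seen. Alternatives covered scaling, pseudocount, dim probe sets, the block, the trend, each litter left out and the mean of probe sets. Replicates are pools of separate litters.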

Additional observations from a re-analysis of the deposited data

How the results depend on the processing

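Calls depended on the processing and directions mostly did not. Of all probe sets 118 fell and 71 rose. The counts were 32 lower and 3 higher with intensities scaled as deposited, 512 and 198 with array medians set equal, 330 and 271 with a pseudocount of 1, and 32 and 27 with a pseudocount of 64. They were 609 and 521 without the dimmest 40% of probe sets and 6 and 0 in eBayes without an intensity trend. Without the litter as a replicate block 75 fell, and of the 27 sterol genes no call changed. Leaving out 1 litter gave 0 to 1419 lower and 0 to 1354 higher. Of the 27 genes 3 fell and 0 rose. None fell as deposited, with a pseudocount of 64, without the trend or with probe sets averaged per gene (0 each), 6 fell without the dimmest probe sets, and 0 to 12 fell without 1 litter. With a pseudocount of 1, and without the dimmest probe sets, 1 rose, and 0 to 2 rose without 1 litter, the highest counts being those without litter C. The median of the 27, -0.27, was -0.46 as deposited and -0.40 with equal medians, where all probe sets had -0.07 and -0.0071. The medians of squalene and sterol enzymes were -0.37 and -0.31, and -0.30 to -0.15 without 1 litter. Those of SREBP regulators were -0.63 and -0.57 (-0.43 in the report). Genes near 0 changed sign. Nr1h3 was -0.0054 as deposited and -0.0346 to 0.13 without 1 litter. Pmvk was -0.16 as deposited, -0.0974 with equal medians and -0.0468 to 0.222 without 1 litter. Sc5d was -0.0819 as deposited, -0.0226 with equal medians and -0.20 with its probe sets averaged, and Msmo1 was then 0.0051. Tm7sf2 was -0.292 to 0.0514 without 1 litter. The cause was not tested. With 3 pairs of arrays the precision is limited, and dim genes such as Nr1h3 and Tm7sf2 lie where the pseudocount compresses changes.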
